A study of Arabidopsis thaliana with 2 samples.

Results

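Transcript levels of 6 clock-linked genes were compared between leaves of wild type Arabidopsis thaliana and leaves of Atclb1-1, a line homozygous for a T-DNA insertion in AtCLB. The genes were LNK1 (AT5G64170), LNK2 (AT3G54500), LNK3 (AT3G12320), LNK4 (AT5G06980), COR27 (AT5G42900) and COR28 (AT4G33980). They were selected by locus identifier, with their difference between these libraries already known, and all 6 were among the 33557 loci measured. Both lines were in the Columbia ecotype, were harvested at 2 weeks of age and grew under 16 h of light per day at 23 °C by day and night. Each genotype was represented by 1 RNA-seq library, and the labels do not say how many plants went into it. Levels are FPKM, fragments scaled to the length of the transcript and the depth of the library. With a single library per genotype there was no replicate spread to set a difference against, no test was possible, and all values below describe these libraries.

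The circadian clock of plants is a loop of transcription factors that peak at different hours of the day. The LNK proteins carry no DNA-binding domain of their own. They are morning-phased coactivators that attach to MYB-type factors of the RVE8 clade and help to switch on genes that peak from midday to evening, such as PRR5 and TOC1. COR27 and COR28 are small proteins induced by cold and phased to the later part of the day. They act as repressors in the clock, influence freezing tolerance and flowering, and bind the ubiquitin ligase COP1 of light signalling. Their transcription is held down in the morning by CCA1, a MYB factor that recognises a promoter sequence called the evening element.

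The regions just before the starts of COR28, LNK2, LNK3 and LNK4 are shown because matches to sequences known for clock, light or cold factors lay in them. Each is the 250 bases before the annotated gene start, read 5′ to 3′ on the strand of the gene from the TAIR10.1 RefSeq genome. Capitals mark matches, on either strand, to the evening element AAAATATCT, its core AATATCT, the CCA1 binding site AAAAATCT, the G-box CACGTG, the cold-responsive CRT/DRE core CCGAC and the LUX binding sites GATACG and GATTCG. The core lies within the full evening element, so each full match is also a core match. LNK1 held none of these letters in its window and is not shown.

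COR28 promoter, chr4:16285230-16285479, minus strand: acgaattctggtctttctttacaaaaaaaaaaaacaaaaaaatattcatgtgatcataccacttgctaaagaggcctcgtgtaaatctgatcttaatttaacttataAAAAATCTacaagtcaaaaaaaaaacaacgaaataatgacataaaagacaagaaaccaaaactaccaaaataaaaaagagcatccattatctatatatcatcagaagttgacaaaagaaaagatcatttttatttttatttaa
LNK2 promoter, chr3:20179071-20179320, minus strand: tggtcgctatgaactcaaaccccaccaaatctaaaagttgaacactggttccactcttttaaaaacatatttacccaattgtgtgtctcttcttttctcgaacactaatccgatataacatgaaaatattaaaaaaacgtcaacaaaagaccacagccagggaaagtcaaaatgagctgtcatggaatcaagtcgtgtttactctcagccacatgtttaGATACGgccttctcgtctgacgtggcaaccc
LNK3 promoter, chr3:3923265-3923514, plus strand: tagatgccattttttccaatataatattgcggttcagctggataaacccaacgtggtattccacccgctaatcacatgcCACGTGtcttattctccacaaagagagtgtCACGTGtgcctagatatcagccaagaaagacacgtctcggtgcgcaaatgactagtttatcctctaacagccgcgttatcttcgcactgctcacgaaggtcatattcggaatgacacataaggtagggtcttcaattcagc
LNK4 promoter, chr5:2166870-2167119, plus strand: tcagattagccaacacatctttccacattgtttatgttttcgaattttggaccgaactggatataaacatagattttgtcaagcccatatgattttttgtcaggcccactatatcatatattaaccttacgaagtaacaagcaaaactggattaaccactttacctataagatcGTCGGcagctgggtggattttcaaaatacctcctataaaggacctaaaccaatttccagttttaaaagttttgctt

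COR28 held a CCA1 binding site at 143 to 136 bases before the start, a match found in 6.69% of 27443 windows of protein-coding genes of the same length. An evening element was present in 2.36% of these windows and its core in 2745 of them, and neither was in the window of COR28 or of an LNK gene. LNK3 held 2 G-boxes, at 171 to 166 and at 141 to 136 bases, against 6.49% of windows with at least 1. LNK4 held a single CRT/DRE core at 76 to 72 bases, found in 12.0% of windows, and LNK2 a single GATACG at 31 to 26 bases, found in 4.59%. The form GATTCG was in 7.88% of windows and in none of the 5 genes searched. A match is a stretch of letters and does not show that a factor was bound.

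COR28 has a later annotated transcript start 170 bases inside the gene. The 250 bases before that start held an evening element, at 139 to 131 bases before it, and 2 cores, 1 of which is part of that element. The full element lies 31 bases after the outer gene start, in the first exon of the longer transcript, and is shown with 10 bases on either side because it is the only full evening element found in the windows searched for COR28.

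COR28 site, chr4:16285180-16285208, minus strand: gctccaaaaaAAAATATCTggctgatatt

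The later starts of LNK2 at 43 and 88 bases, of LNK3 at 220 bases and of LNK4 at 348 and 416 bases each had 1 G-box in their windows. COR28 at 170 bases also had 1. A single CRT/DRE core lay in the windows of the later starts of LNK3 at 220 bases, of LNK4 at 348 and 416 bases and of COR28 at 170 bases. No evening element, core or CCA1 binding site lay in the 250 bases before any annotated start of an LNK gene. When the window before the gene start was widened to 1000 bases, LNK1 gained 3 matches to GATTCG, LNK3 a single evening element core, and COR28 a G-box. An evening element was present in 7.24% of windows of that length and in none of these 5.

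**Figure D1:**
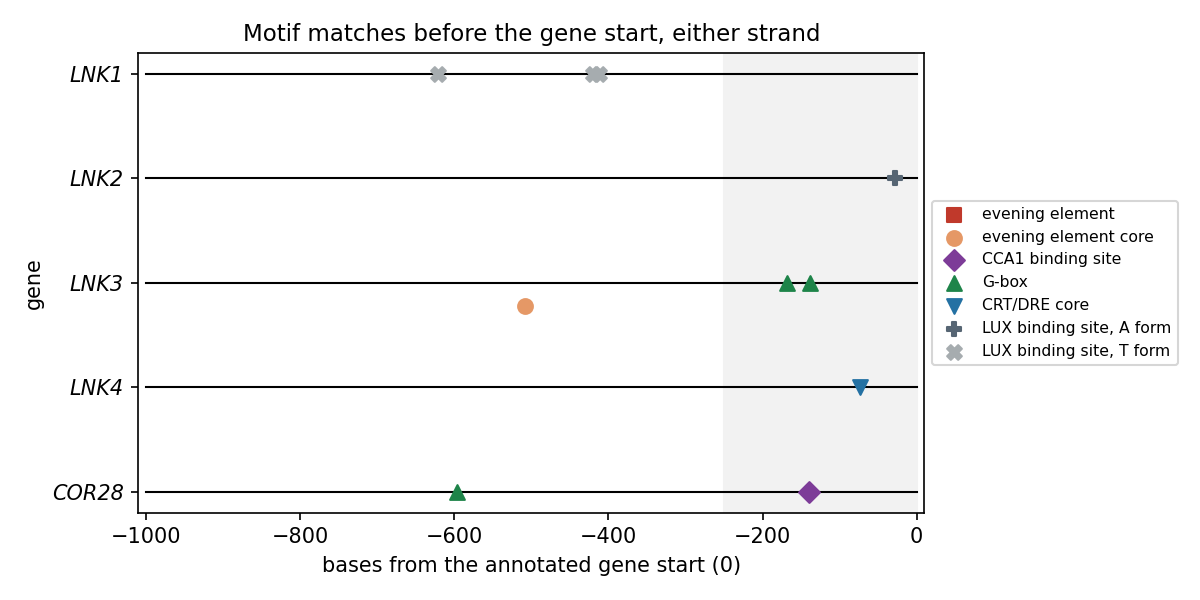
Positions of motif matches on either strand in the 1000 bases before the annotated starts of COR28 and the LNK genes; the horizontal axis is the distance in bases from the start, the grey band is the 250-base window, and evening element cores are drawn just below the line. The G-boxes of LNK3 lie 171 to 136 bases before its start, and the window of LNK1 nearest its start is empty.

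The LNK genes and the COR genes lay on opposite sides. In the Atclb1-1 library each of the 4 LNK genes was higher, by 4.70-fold or more, and COR27 and COR28 were 503-fold and 175-fold lower. Among the 18171 loci that reached 1 FPKM in either library, 17.2% were higher by 2-fold or more and 10.8% lower by 2-fold or more, on the log2(FPKM + 1) scale. The 6 genes were chosen on this same contrast, so their count against these shares is a description. The median difference of all these loci was 0.21 on that scale. All log2 differences below are the Atclb1-1 library minus wild type after 1 was added to each FPKM, and folds of single genes are plain ratios of FPKM.

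LNK1 and LNK2, the best-studied coactivators of the family, differed by nearly the same ratio. LNK1 stood at 30.6 FPKM in the wild type library and at 145 FPKM in the Atclb1-1 library, a ratio of 4.73 and a log2 difference of 2.21. LNK2 stood at 33.4 and 157 FPKM, a ratio of 4.70 and a log2 difference of 2.20. The level of LNK1 was 0.916 times that of LNK2 in wild type and 0.922 times in the Atclb1-1 library. The pair thus kept its proportion while both genes were higher, and LNK1 took place 763 and LNK2 place 769 when the loci kept were ranked from the highest difference down.

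LNK3 and LNK4, the shorter members of the family, formed a further pair with a larger ratio. LNK3 stood at 13.6 FPKM in the wild type library and at 168 FPKM in the Atclb1-1 library, a ratio of 12.4 and a log2 difference of 3.54. LNK4 stood at 5.72 and 69.8 FPKM, a ratio of 12.2 and a log2 difference of 3.40. The level of LNK3 was 2.37 times that of LNK4 in wild type and 2.41 times in the Atclb1-1 library. Ranked from the highest difference down, LNK3 was at place 179 and LNK4 at place 204 among the loci kept.

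The order of the LNK genes by level, which FPKM allows because it is per length of transcript, differed between the libraries. In wild type LNK2 and LNK1 led, with LNK3 and then LNK4 below them, and the highest was 5.85 times the lowest. In the Atclb1-1 library LNK3 led, followed by LNK2, LNK1 and LNK4, and the highest was 2.41 times the lowest. The spread needed to tell neighbours in either order apart was not measured. Together the 4 genes summed to 83.3 FPKM in the wild type library and 540.1 FPKM in the Atclb1-1 library, 6.48 times as much.

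COR27 was the most abundant of the 6 genes in wild type and the least abundant in the Atclb1-1 library. It stood at 173 FPKM in the wild type library and at 0.343 FPKM in the Atclb1-1 library, a log2 difference of -7.01. COR28 stood at 130 and 0.742 FPKM, a log2 difference of -6.23. From the lowest difference up, COR27 was at place 9 and COR28 at place 11 of the 18171 loci. In wild type 95.8% of the loci kept lay below COR27 and 94.1% below COR28, and in the Atclb1-1 library 1.91% and 3.93%.

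The low values of the COR genes rest on few fragments. In the Atclb1-1 library, the steps between low FPKM values put 1 fragment on a transcript of 1 kb at 0.055 to 0.06 FPKM. With the longest annotated transcripts, this corresponds to roughly 8 to 9 fragments for COR27 and 17 to 19 for COR28, against roughly 3417 to 3679 and 2602 to 2802 in wild type. LNK4, the lowest LNK gene, corresponds to roughly 141 to 152 fragments in wild type. These numbers are estimates from transcript lengths that the authors may not have used, and reads per gene were not recovered. The level of COR27 was 1.33 times that of COR28 in wild type and 0.462 times in the Atclb1-1 library, where both rest on these low numbers.

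**Figure D2:**
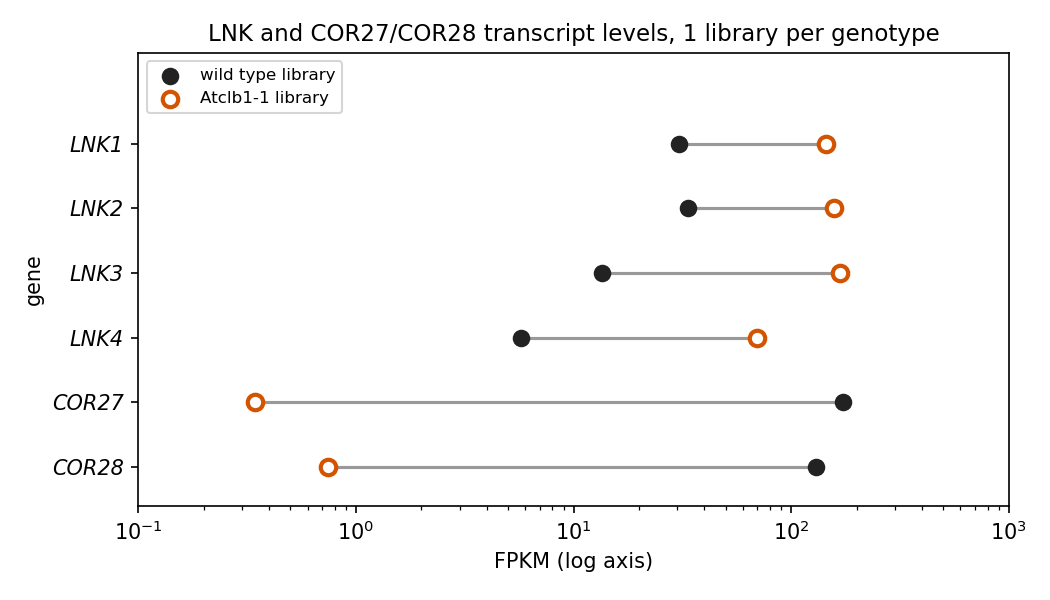
FPKM of each gene on a log axis, with a filled point for the wild type library and an open point for the Atclb1-1 library, joined by a line; there are no replicates and so no error bars. The LNK genes lie to the right in the Atclb1-1 library, at 69.8 to 168 FPKM, and COR27 and COR28 lie far to the left, at 0.343 and 0.742 FPKM.

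The balance between the groups was turned over. COR27 and COR28 together held 302 FPKM in the wild type library, 3.63 times the sum of the LNK genes. In the Atclb1-1 library they held 1.09 FPKM, and the sum of the LNK genes was 498 times theirs.

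**Figure D3:**
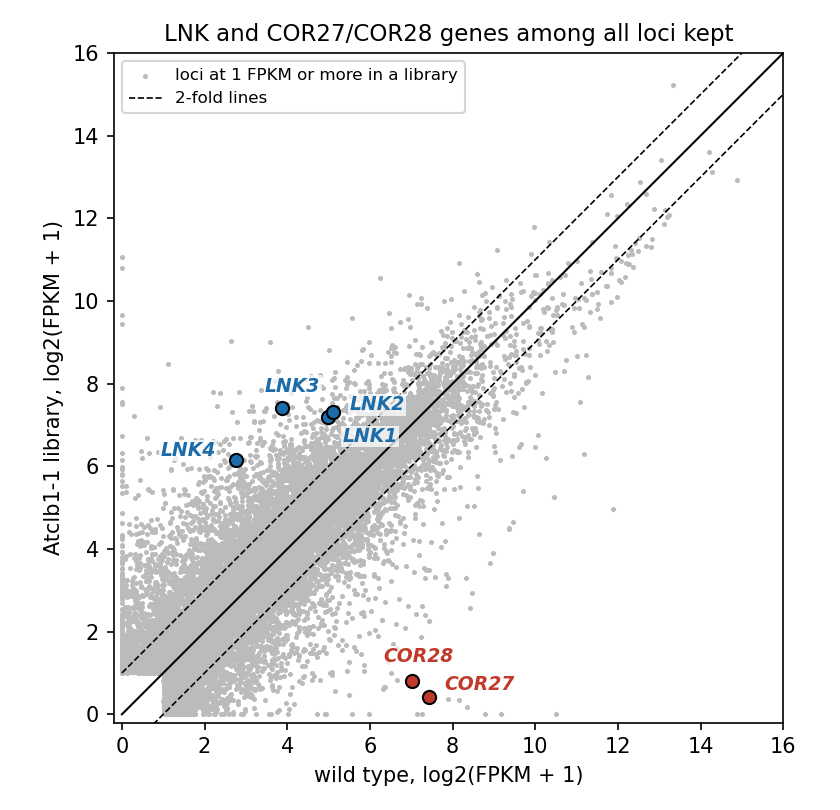
Each grey point is 1 of the 18171 loci that reached 1 FPKM in either library, by its log2(FPKM + 1) in wild type (horizontal) and in the Atclb1-1 library (vertical); the solid line marks equal values and the dashed lines a 2-fold difference. The LNK genes (blue) lie above the upper dashed line and COR27 and COR28 (red) at the bottom right, with log2 differences of -7.01 and -6.23.

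Genes that work with the LNK proteins were mostly higher too. The RVE8 clade, the MYB factors that LNK proteins bind, had 4 of 5 members higher by 2-fold or more and none lower, and the median log2 difference was 1.82. For this and each list below, the shares over all loci kept were 17.2% higher and 10.8% lower, with a median of 0.21. RVE8, the member best known for its work with LNK1 and LNK2, stood at 3.89 FPKM in the wild type library and at 57.1 FPKM in the Atclb1-1 library, a ratio of 14.7. RVE4 was at 26.3 and 77.2 FPKM, RVE5 at 7.16 and 27.9 FPKM, and RVE3 at 0.338 and 10.3 FPKM. RVE6 was at 9.19 and 16.3 FPKM, under 2-fold.

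Dawn MYB genes, among them the repressors that act on evening elements, had 4 of 5 members higher by 2-fold or more and 1 lower, and the median was 3.92. CCA1 was at 7.39 FPKM in the wild type library and 162 FPKM in the Atclb1-1 library, and LHY at 3.41 and 74.0 FPKM. RVE1, which links the clock to auxin, was at 1.62 and 38.8 FPKM, and RVE7 at 1.90 and 5.39 FPKM. RVE2 was lower, at 13.1 and 4.73 FPKM. Neither the labels nor the file give the hour of harvest. A difference in hour of harvest and a difference in genotype cannot be told apart with 1 library each, and this holds for every clock-phased gene described.

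The list of day- and evening-phased clock genes, in which ZTL was also placed, included the known targets of LNK and RVE8 and went mostly the other way. The phase of its genes was not measured here. Of 13 genes 9 were lower by 2-fold or more and 1 was higher, and the median was -1.75. PRR5 and TOC1, pseudo-response regulators whose induction is known to need LNK1 and LNK2, stood at 160 and 8.88 FPKM and at 80.3 and 12.1 FPKM, respectively. They were thus low in the library in which their coactivators were high. ELF4, of the evening complex, was at 343 and 4.95 FPKM, and its partner LUX at 56.6 and 1.05 FPKM. FKF1 was at 78.9 and 0.526 FPKM and PRR3 at 34.9 and 0.480 FPKM.

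PRR9, the earliest of the pseudo-response regulators in the day, was the higher member of that list, at 5.04 and 53.7 FPKM. PRR7, which follows PRR9, was at 97.3 and 82.6 FPKM. GI was at 61.9 and 34.0 FPKM and ZTL, an F-box blue-light receptor, at 19.5 and 38.7 FPKM, both under 2-fold on the log2(FPKM + 1) scale.

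Light signalling regulators, through which COR27 and COR28 are known to work, were higher in part. Of 14 genes 7 were higher by 2-fold or more and none lower, and the median was 0.89. COP1, the ubiquitin ligase bound by COR27 and COR28, was at 16.0 and 27.7 FPKM, under 2-fold. Its partners SPA1, SPA3 and SPA4 were at 27.5 and 69.2 FPKM, at 10.3 and 33.5 FPKM and at 4.21 and 20.6 FPKM. HY5, a light-signalling transcription factor that COP1 marks for breakdown, was at 6.41 and 18.5 FPKM, and its homologue HYH at 11.5 and 83.7 FPKM. PIF5 was at 48.9 and 126 FPKM.

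Cold response genes, the class after which COR27 and COR28 are named, were mostly lower. Of 16 genes 10 were lower by 2-fold or more and 2 were higher, and the median was -1.58. COR15B, a chloroplast protectant, was at 2156 and 188 FPKM, RD29A at 784 and 88.0 FPKM, and GOLS3, a galactinol synthase gene, at 87.5 and 12.0 FPKM. COR413IM1 stood at 514 and 89.4 FPKM. COR413PM1 stood at 1141 and 218 FPKM, and KIN1 (140 and 33.6 FPKM) followed. The log2 difference of COR15B, -3.52, was the lowest of the list, against -7.01 for COR27. CBF1, CBF2 and CBF3, the transcription factors of the cold response, were at 23.2 and 17.9 FPKM, at 12.9 and 40.2 FPKM and at 52.0 and 19.6 FPKM, and so did not share a direction. CBF1, CBF2 and CBF3 are close relatives, as are KIN1 and KIN2, and the sources used here do not say how reads were divided among such copies.

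Of the 10 anthocyanin genes, a pathway in which RVE8 and LNK proteins are known to act, all were higher by 2-fold or more, and their median was 2.61. PAP1, a MYB regulator, stood at 9.15 and 134 FPKM, and its relative PAP2 at 1.73 and 20.6 FPKM. The enzyme genes DFR, LDOX, UGT75C1 and F3H were at 3.22 and 53.3, at 1.26 and 24.2, at 3.76 and 31.7 and at 9.63 and 56.8 FPKM. Among photoperiod flowering genes, 4 of 6 measured were higher by 2-fold or more and none lower, and the median was 1.26. The 4 were CDF1 (15.5 and 37.1 FPKM), CDF2 (2.50 and 16.2 FPKM), CDF3 (38.0 and 115 FPKM) and CDF5 (6.34 and 17.2 FPKM), which encode DOF repressors of CO. FT, the mobile flowering signal, was at 25.5 and 14.4 FPKM and SOC1 at 203 and 224 FPKM, while CO was under 1 FPKM in both libraries.

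**Figure D4:**
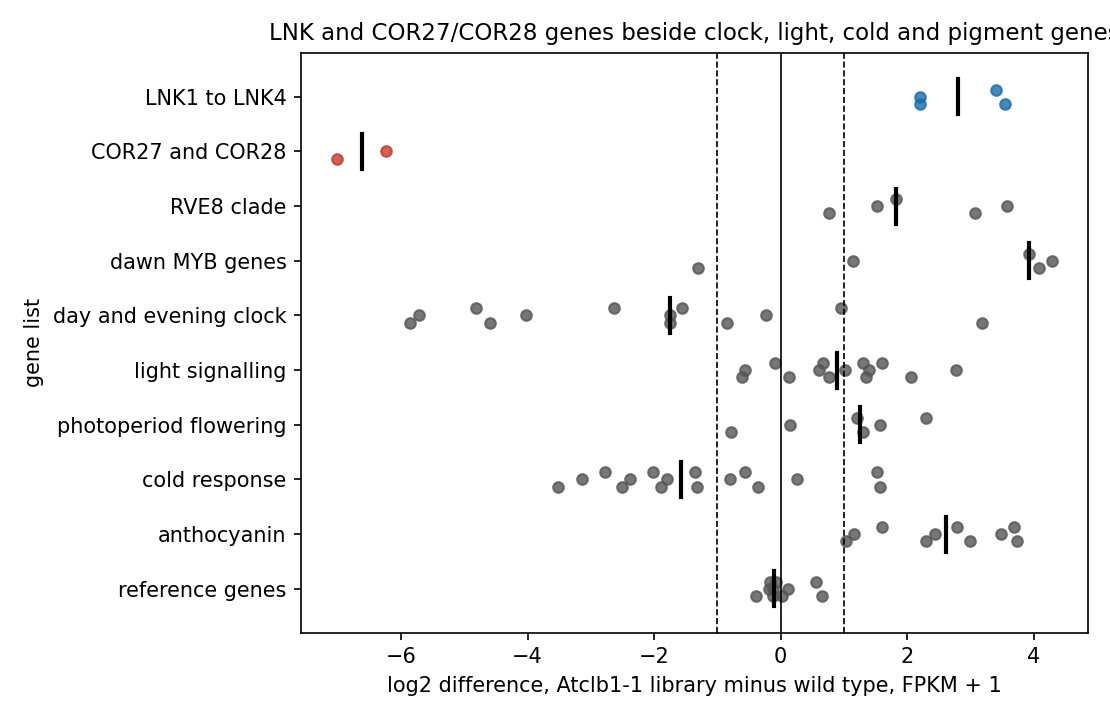
Log2 difference of every measured gene in each list, after 1 was added to each FPKM; each point is a gene, the black bar is the median of the list, and dashed lines mark 2-fold. The LNK genes sit on the right, as do the RVE8 clade, the anthocyanin genes and the dawn MYB genes other than RVE2. COR27 and COR28 lie to the left of every other point, and reference genes stay between the dashed lines.

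Of 12 nearest loci, 1 on each side of each gene, 7 reached 1 FPKM in either library. Of these, 2 were higher by 2-fold or more and 1 was lower by 2-fold or more. Over all loci that reached 1 FPKM the shares were 17.2% and 10.8%, and 7 loci are too few to be set apart from them. LNK1 (chr5:25672466-25676823, minus strand) has AT5G64180 at its start, 249 bases away, at 39.2 and 42.5 FPKM. AT5G64160, which overlaps the far end of LNK1 by 245 bases on the opposite strand, was at 18.5 and 19.1 FPKM. The neighbours of LNK1 were therefore level while LNK1 was 4.73-fold higher. LNK2 (chr3:20175370-20179070, minus strand) overlaps RPB5E by 93 bases on the opposite strand. RPB5E was listed at 0 in the wild type library and reached 0.135 FPKM in the Atclb1-1 library, and AT3G54510 on the other side was at 0.0256 and 0.132 FPKM. LNK2 also overlaps a noncoding locus, AT3G08405, by 266 bases on the opposite strand, which was not analysed here.

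LNK3 (chr3:3923515-3925502, plus strand) lies between BUG22, at 15.6 and 32.4 FPKM, and AT3G12340, at 1.79 and 4.48 FPKM, with log2 differences of 1.01 and 0.98. AT3G12340 overlaps LNK3 by 5 bases on the opposite strand. LNK4 (chr5:2167120-2169437, plus strand) has AT5G06970 before it, at 8.56 and 10.6 FPKM. AT5G06990, which overlaps LNK4 by 13 bases on the same strand, was at 0.141 FPKM in the wild type library and listed at 0 in the Atclb1-1 library. No overlapping locus in the table reached the level of its LNK gene in either library.

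COR27 (chr5:17197641-17199910, minus strand) overlaps no annotated locus, and AT5G42895 and AT5G42905 beside it were listed at 0 in both libraries. COR28 (chr4:16282281-16285229, minus strand) overlaps none either. AT4G33985, on its upstream side at a distance of 2883 bases, was also lower, at 27.0 and 5.38 FPKM, a log2 difference of -2.13. AT4G33970, 233 bases downstream, was higher, at 0.0305 and 1.84 FPKM.

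**Figure D5:**
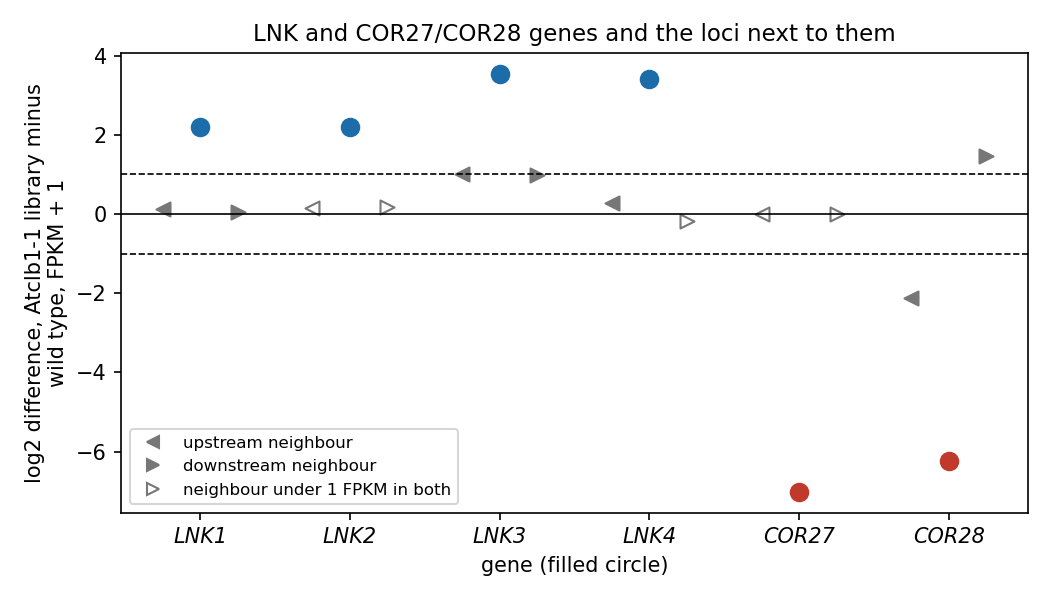
Log2 difference, after 1 was added to each FPKM, of each gene (filled circle) and of the nearest measured locus upstream and downstream (triangles); open triangles are loci under 1 FPKM in both libraries and dashed lines mark 2-fold. The neighbours lie between -2.13 and 1.46, nearer to 0 than the gene they flank in each case.

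Unbroken identical stretches between the transcripts of the 6 genes were short. The transcripts were not aligned, so the share of identical bases over their length was not measured. The longest identical stretch between the longest transcripts of LNK3 and LNK4 was 24 bases, that of LNK1 and LNK2 was 12 bases, and that of COR27 and COR28 was 15 bases. LNK1 is annotated with 3 transcripts and 8 exons in the longest, which has 2667 bases, and LNK2 with 8 transcripts and a longest of 2522 bases. LNK3 and LNK4 have longest transcripts of 1475 and 1725 bases, and COR27 and COR28 of 1386 and 1404 bases. FPKM were given per locus, so the share of each transcript form was not measured.

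The loci whose pair of values was most like that of each gene were found by the distance between log2(FPKM + 1) values over the 2 libraries. AT4G29905 (29.4 and 152 FPKM, distance 0.09) and GPX7, a glutathione peroxidase gene (32.9 and 141 FPKM, distance 0.11), were nearest to LNK1. AKR4C8, an aldo-keto reductase gene (32.6 and 157 FPKM, distance 0.03), and ATCAD4, a cinnamyl alcohol dehydrogenase gene (35.1 and 149 FPKM, distance 0.10), were nearest to LNK2. AT3G46080 and the aldo-keto reductase gene ChlAKR were nearest to LNK3, at distances of 0.11 and 0.18, and the glutaredoxin gene GRXS13 and AT1G21050 to LNK4, at 0.19 and 0.20. COR28 was nearest to COL9, a B-box gene (99.9 and 0.781 FPKM, distance 0.38), and to GASA6, a gene of the gibberellin-stimulated family (90.1 and 0.999 FPKM, distance 0.56). COR27 was nearest to AT1G07050 (234 and 0.292 FPKM, distance 0.44). The next nearest to COR27 was the microRNA gene MIR168a (AT4G19395, distance 0.46), at 152 FPKM in the wild type library and listed at 0 in the Atclb1-1 library. Likeness over 2 libraries is a likeness of level and ratio alone.

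AtCLB itself was at 39.2 FPKM in the wild type library and 13.5 FPKM in the Atclb1-1 library, 34.5% of the wild type level. Whether the remaining reads came from intact transcript was not measured. The steps of low values put the Atclb1-1 library at 1.21 times the depth of wild type, which corresponds to some 16700000 to 18200000 mapped fragments against 14300000 to 15400000. None of 10 reference genes differed by 2-fold, with a median of -0.10. Mesophyll markers were abundant in both libraries, with a summed level of 30239 and 18444 FPKM, and 2 of 4 were at least 2-fold lower. Guard cell markers summed to 1192 and 160.0 FPKM, and most of each sum was TGG1 (1017 and 88.1 FPKM). Of these 4 markers 3 were lower, and KAT1 was higher, at 12.8 and 32.4 FPKM. Phloem markers summed to 336 and 289 FPKM with none of 3 past 2-fold, and xylem markers to 41.1 and 21.7 FPKM with 1 of 3 lower. Root, flower and seed markers each summed to at most 1.31 FPKM in either library, with COBL9, EXPA7 and OLEO1 listed at 0 in both. Over all loci kept 17.2% were higher and 10.8% lower, and lists of 4 markers or fewer are too small to be set apart from these shares. The part of these cell type differences in the values of the LNK and COR genes was not tested. Of the loci at least 2-fold apart, 61.5% were higher in the Atclb1-1 library, 50.7% once the median ratio was set to 0 and 49.0% after medians of like transcript length and GC content were subtracted.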

How the data were processed

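RNA-seq libraries came from leaf total RNA, prepared with a strand-marking kit per the labels' protocols, with 1 library for each genotype. FPKM were deposited by the authors and are named so per the file headers. The submitters' processing notes name TopHat 1.3.2, Cuffdiff and the TAIR10 build. Parameters, annotation and filters, and whether counting used strand, are not stated in the labels or the file, so values of overlapping genes are uncertain.

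Columns were matched to samples by title and groups taken from the genotype labels. The 6 genes and the gene lists were chosen with earlier results of these data known. Differences are log2((mutant FPKM + 1)/(wild type FPKM + 1)), which understates the difference of low genes, over loci that reached 1 FPKM in either library, with 2-fold as the threshold. No p-value was computed. Named genes were the 6 genes, AtCLB, the nearest locus on each side, the 2 loci nearest in level, and up to 6 members of each list with the largest absolute difference. TOC1, PRR7, GI, ZTL, COP1, the CBF genes, CO and the cell type markers at 0 lie outside that rule and were named after their values were seen.

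Gene models, transcript lengths and sequences came from TAIR10.1 RefSeq, which differs in name from the authors' build. No coordinates were taken from the authors' table. The planned comparison of proteins was not made, and the promoter of COR27 is not reported here. Alternatives were other pseudocounts, scalings, filters and thresholds and removal of a length and GC trend. Chosen after seeing the data were wider promoter windows, later transcript starts and a restriction to coding loci with transcripts from 500 nt. On simulated data, only the fold differences of well-expressed loci, the removal of a length trend and the depth ratio were tested. The motif, neighbour and nearest-level steps were not, and the simulation held no variation between plants. Python 3.11.15, pandas 2.3.3 and numpy 2.4.6 were used.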

Additional observations from a re-analysis of the deposited data

How the results depend on the processing

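All 4 LNK genes stayed at least 2-fold higher, and COR27 and COR28 at least 2-fold lower, under every pseudocount, scaling and trend removal tried. The filters keep or drop a locus and leave its difference as it is. All 6 were past a 4-fold threshold with a pseudocount of 1 and the values scaled as deposited. Under other scalings LNK2 was at 1.99 with the median ratio set to 0, and LNK1 and LNK2 at 1.89 and 1.91 once the trend was removed, below 4-fold. The log2 difference ranged from 1.89 to 2.31 for LNK1, 1.91 to 2.30 for LNK2, 3.22 to 3.64 for LNK3 and 2.80 to 3.59 for LNK4. The size of the COR differences depends on the pseudocount. With 0.1 in place of 1 they were -8.61 for COR27 and -7.27 for COR28, and with 5 they were -5.05 and -4.55, while LNK4 was at 2.80 with 5. Over all loci, a pseudocount of 5 left 1774 loci higher and 1058 lower, and a 4-fold threshold 961 and 480, against 3124 and 1956 at 2-fold.

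Of 372 list values under alternatives, 347 stayed within 1.5-fold of the main value and none reversed. For a median this means 1.5-fold in the ratio that its log2 difference stands for. The printed log2 value itself could change by more. Many of the 372 could not move. With 1 added to each FPKM, a 2-fold difference needs at least 1 FPKM in a library. Dropping the filter therefore could not change the list counts of higher and lower genes. A 4-fold threshold cannot change a median, and the restriction to longer coding loci returned every list value unchanged. The 347 thus overstates how far the lists were put to the test. The median of the dawn MYB list was 2.72 and that of the anthocyanin list 2.00 with a pseudocount of 5, and that of the day and evening list was -2.72 with 0.1. With both libraries scaled to the same nuclear total, 2 genes of the day and evening list were higher in place of 1. Removal of the length and GC trend left the light list at a median of 0.43, with 5 genes higher in place of 7. With a 4-fold threshold, fewer list members counted as different: 2 of the RVE8 clade were higher in place of 4, 2 of the light list in place of 7 and 1 of the photoperiod list in place of 4, and 6 of the cold list were lower in place of 10 and none higher in place of 2. With 1 library for each genotype, no paired analysis was possible and no replicate could be left out. No test was made.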

Other observations

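Evening elements and direction were also set side by side over all protein-coding genes. Of 17568 loci that reached 1 FPKM in either library with a promoter window, 10.9% were lower by 2-fold or more in the Atclb1-1 library and 16.9% were higher by as much. Of the 464 with an evening element in the 250 bases before the gene start, 26.9% were lower and 13.4% higher, and their median log2 difference was -0.10. In windows of 1000 bases, the 1308 loci with an evening element had 19.1% lower and 14.9% higher. Among the loci with low differences in that set were GRP7 (3794 and 30.3 FPKM), FKF1 (78.9 and 0.526 FPKM) and AIF1 (80.5 and 0.591 FPKM). These genes were chosen after their values were seen. Loci with a G-box in the 250-base window, as in LNK3, had 21.5% higher and 10.7% lower. Loci with the CCA1 binding site, as in COR28, had 16.3% higher and 10.9% lower, close to the shares over all loci. These shares are descriptions of 1 library for each genotype.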
